A study of Mus musculus with 18 samples.

Results

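The interferon-stimulated gene loci are the open chromatin regions of lung endothelial cells (ECs) that lie nearest to 40 genes induced by interferon. Peaks of the 18 ATAC-seq lists were merged into 47338 consensus regions with a peak in at least 2 mice, and 101 of them had 1 of the 40 genes as the nearest transcription start site (TSS) in the mm10 annotation. Of these, 39 were promoter regions, with the midpoint within 1 kb of the TSS, and 62 were distal. Regions were found for 37 genes and promoter regions for 32, and Oas3, Isg15 and Cxcl9 had none. The ECs were sorted as CD45-, EpCAM-, GFP- and CD31+ cells from lungs of FVB mice of both sexes carrying a Col1α1-GFP reporter, which the sort used to remove collagen-producing cells. Young mice were 2 months old and made up the groups Young Sham (n = 5) and Young Bleo (n = 4). Aged mice were 18 months old and made up Aged Sham (n = 4) and Aged Bleo (n = 5). Sham mice received PBS and Bleo mice received intratracheal bleomycin, a drug that injures the lung, and lungs were taken 30 days later. Each list came from 1 mouse.

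Type I interferons signal through a receptor that activates the kinases JAK1 and TYK2, and a resulting complex that contains STAT2 and IRF9 binds a tandem repeat of GAAA in the promoters of antiviral genes. The core TTCNNNGAA is that of the gamma-activated site (GAS), the element known from genes induced by interferon-γ. ECs are a known responding cell type, with sensors of viral nucleic acid, antiviral effectors, chemokines and antigen presentation genes among the targets.

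The sequences below were chosen after the values were seen, to show loci with and without these motifs beside the results that concern them. They were read from the GRCm38.p6 RefSeq promoter table, as the 150 bases upstream of the TSS, or from the same genome, as 200 bases around the strongest summit of a distal region. Capitals mark GAAANNGAAA or TTCNNNGAA on either strand, and overlapping matches run together. A match describes the letters only.
Bst2, chr8:71537473-71537622, minus strand: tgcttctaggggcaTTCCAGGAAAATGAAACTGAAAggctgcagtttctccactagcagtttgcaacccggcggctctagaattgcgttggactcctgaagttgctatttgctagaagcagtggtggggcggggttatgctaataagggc
Isg15, chr4:156200819-156200968, minus strand: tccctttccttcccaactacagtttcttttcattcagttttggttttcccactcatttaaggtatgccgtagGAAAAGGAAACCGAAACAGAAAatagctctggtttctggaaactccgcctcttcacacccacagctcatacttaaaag
Ifit1, the stretch between its outer matches, chr19:34640785-34640813, plus strand: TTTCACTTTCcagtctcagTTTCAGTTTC
Cxcl10, chr5:92348890-92349039, minus strand: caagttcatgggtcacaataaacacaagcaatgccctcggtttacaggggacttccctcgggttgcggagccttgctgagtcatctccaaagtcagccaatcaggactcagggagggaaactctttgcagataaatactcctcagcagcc
Irf9, chr14:55603835-55603984, plus strand: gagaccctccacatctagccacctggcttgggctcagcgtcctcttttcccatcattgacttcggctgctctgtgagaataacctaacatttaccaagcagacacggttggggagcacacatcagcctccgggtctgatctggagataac
Gbp5 distal 1, chr3:142454322-142454521, plus strand: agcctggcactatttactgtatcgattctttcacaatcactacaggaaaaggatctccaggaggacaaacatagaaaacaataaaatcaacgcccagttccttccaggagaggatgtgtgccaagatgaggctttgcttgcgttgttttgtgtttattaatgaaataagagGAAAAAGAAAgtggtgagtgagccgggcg
Gbp5 distal 2, chr3:142463485-142463684, plus strand: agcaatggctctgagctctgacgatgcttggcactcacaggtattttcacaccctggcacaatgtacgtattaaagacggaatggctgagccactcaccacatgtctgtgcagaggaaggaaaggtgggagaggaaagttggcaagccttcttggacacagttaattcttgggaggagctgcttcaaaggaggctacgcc
Socs1 distal 4, chr16:10741222-10741421, plus strand: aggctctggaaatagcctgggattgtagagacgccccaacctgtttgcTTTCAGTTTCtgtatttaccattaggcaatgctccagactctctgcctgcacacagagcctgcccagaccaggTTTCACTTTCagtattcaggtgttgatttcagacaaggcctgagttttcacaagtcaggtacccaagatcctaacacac

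Bst2, which tethers budding virus, held 2 tandem GAAA matches and 1 TTCNNNGAA match upstream of its TSS. Isg15, a ubiquitin-like modifier, held 3 tandem GAAA matches, although no consensus region was nearest to its TSS. Ifit1, which binds viral RNA, held 2. The upstream windows of Cxcl10, a chemokine for T cells, and of Irf9 held neither motif, and the 200 bases around the Irf9 summit, downstream of the TSS, held TTCNNNGAA. Bases outside these windows were not searched, so a promoter without a match here can hold one further away. Socs1 distal 4 held 2 tandem GAAA matches and Gbp5 distal 2 held none. The table listed 32 of the 40 genes, and Oas2, Mx1, Mx2, Usp18, Cxcl11, Parp14, Zbp1 and Nlrc5 were not in it and were left out of the motif search. In the 200 bases around the summit, 12 of 31 member promoter windows (38.7%) held the tandem GAAA, against 1.87% of 10445 promoter windows of all listed genes. The shares were 14.6% of 48 member distal windows and 3.30% of 25208 distal windows. TTCNNNGAA was found in 19.4% of member promoter windows against 3.70%, and in 8.33% of member distal windows against 7.55%. The letters come from the reference genome, and the windows are placed by the peaks of these mice. In the 150 bases upstream of the TSS, which use no peak, 30.8% of 39 member entries of the table held the tandem GAAA against 1.59% of all 32843 entries.

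**Figure D1:**
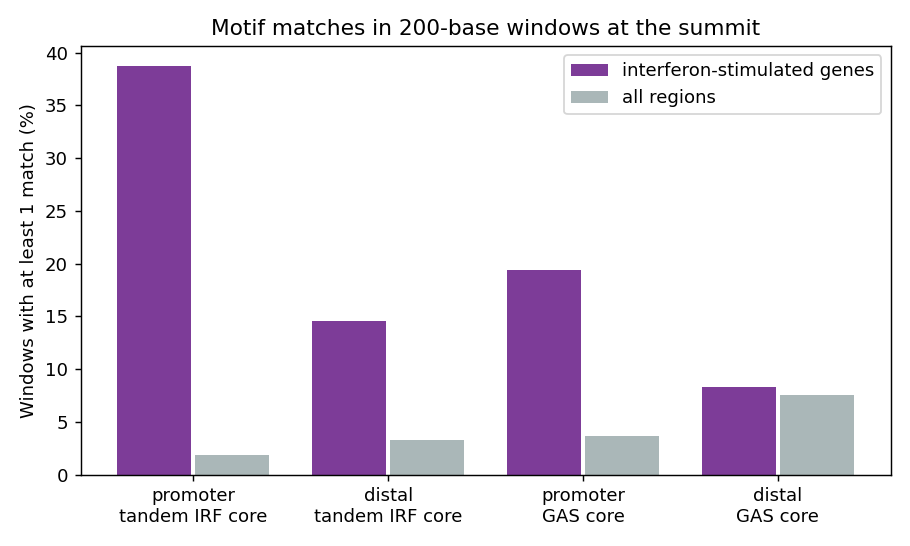
Share of 200-base windows around the summit with at least 1 match, in percent, for interferon-stimulated gene regions and for all regions of genes in the promoter table. The tandem IRF core is GAAANNGAAA and the GAS core TTCNNNGAA, and member promoters stood at 38.7% for the former.

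The lists held 21050 to 40883 peaks, and 26 to 35 fragments covered the median summit. Promoters of all 6 EC markers had peaks, in 15 to 18 mice. Of 10 leukocyte markers only Spi1 had a promoter region, called in all 9 young mice, in 2 of 4 Aged Sham mice and in 3 of 5 Aged Bleo mice, and Ptprc, Cd3e and Csf1r had none. The part of Spi1-positive cells in the results was not tested. Epcam was called in 9 mice, and of 5 fibroblast and smooth muscle markers only Pdgfra was called, in 18. A number in the deposited names, read here as the sequencing lane although the labels do not say what it is, divides the mice by group. Lane 6 held Aged Bleo and 1 Aged Sham mouse, lane 7 held 3 Aged Sham and 3 Young Bleo mice, and lane 8 held Young Sham and 1 Young Bleo mouse. Lane and group therefore cannot be told apart for most comparisons.

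Most member promoters had a peak in sham mice as well as injured ones. Of the 39 promoter regions, 23 (59.0%) were called in all 18 mice, against 77.0% of all promoter regions, and 17 of the 62 distal regions (27.4%) against 21.5%. Fold enrichment, the height of the summit over the background around it in that library, was ranked within each list, and the percentile was averaged over the 18 mice with 0 for a mouse without a peak, so that it reflects both how often a region was called and how strong its peaks were. On that scale the median member promoter stood at the 48.2 percentile, against 72.5 for all promoter regions, and the median member distal region at 20.8 against 14.5. Among regions called in all 18 mice, an alternative added after the values were seen, the medians were 66.6 against 80.2 for promoters and 61.5 against 60.3 for distal regions.

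Stat2, a subunit of the interferon-activated complex, had the highest mean percentile, 96.0, followed by Usp18, the protease that removes ISG15 and dampens receptor signalling, at 93.8. B2m, the light chain of class I major histocompatibility molecules, stood at 86.4, Irf1 at 84.7 and Bst2 at 83.0. Each of these promoters was called in 18 mice. At the other end stood Parp14 at 2.07, the upstream Isg20 region at 2.81, Ifi44 at 9.03, Oasl1 at 11.3 and Mx1, a GTPase that blocks influenza virus, at 11.4. These were called in 6 to 10 mice, and over the mice with a peak they averaged 4.14, 8.42, 20.3, 22.5 and 20.6. By that average Parp14 and Isg20 remained lowest, while the weaker promoters of Mx2 and Gbp3, at 16.7 and 19.6 and called in 18 mice, stood below Ifi44, Oasl1 and Mx1. The order is a description and was not tested.

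Between these ends, the cytosolic RNA sensors Ifih1 and Ddx58 stood at 72.4 and 53.5, and both Zbp1 promoter regions, of a sensor of Z-form nucleic acid, at 33.7 and 26.8. Oas1a and Oasl2 were lower, at 16.2 and 20.6. Among the antiviral effectors, Rsad2 stood at 69.3, Ifi35 at 55.8, Ifit3 at 50.9 and Ifit2 at 46.1. Genes with 2 promoter regions had a stronger and a weaker one, at 76.0 and 22.5 for Dtx3l, a ubiquitin ligase, and at 66.6 and 16.7 for Mx2. Gbp3 stood at 64.3 and 19.6, Gbp7 at 48.2 and Gbp2 at 17.7 and 14.7. The second Isg20 promoter region stood at 36.0. Of the antigen presentation genes, Tap1 stood at 75.7 and both Psmb8 promoter regions at 58.1 and 26.8. Among the transcription factors, Irf9 stood at 83.0, Irf8 at 69.8 and Irf7 at 44.3, and the Socs1 promoter stood at 51.0. By role, the promoter regions called in all 18 mice, against 77.0% of all promoter regions, were 5 of 5 for transcription factors, 2 of 2 for negative regulators, 3 of 4 for antigen presentation genes, 3 of 5 for guanylate-binding proteins, 3 of 8 for sensors, 6 of 14 for antiviral effectors and 1 of 1 for chemokines. The distal regions, against 21.5% of all distal regions, were 6 of 17, 3 of 8, 1 of 4, 2 of 7, 2 of 7, 3 of 17 and 0 of 2 in the same order. These counts are small and were not tested.

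**Figure D2:**
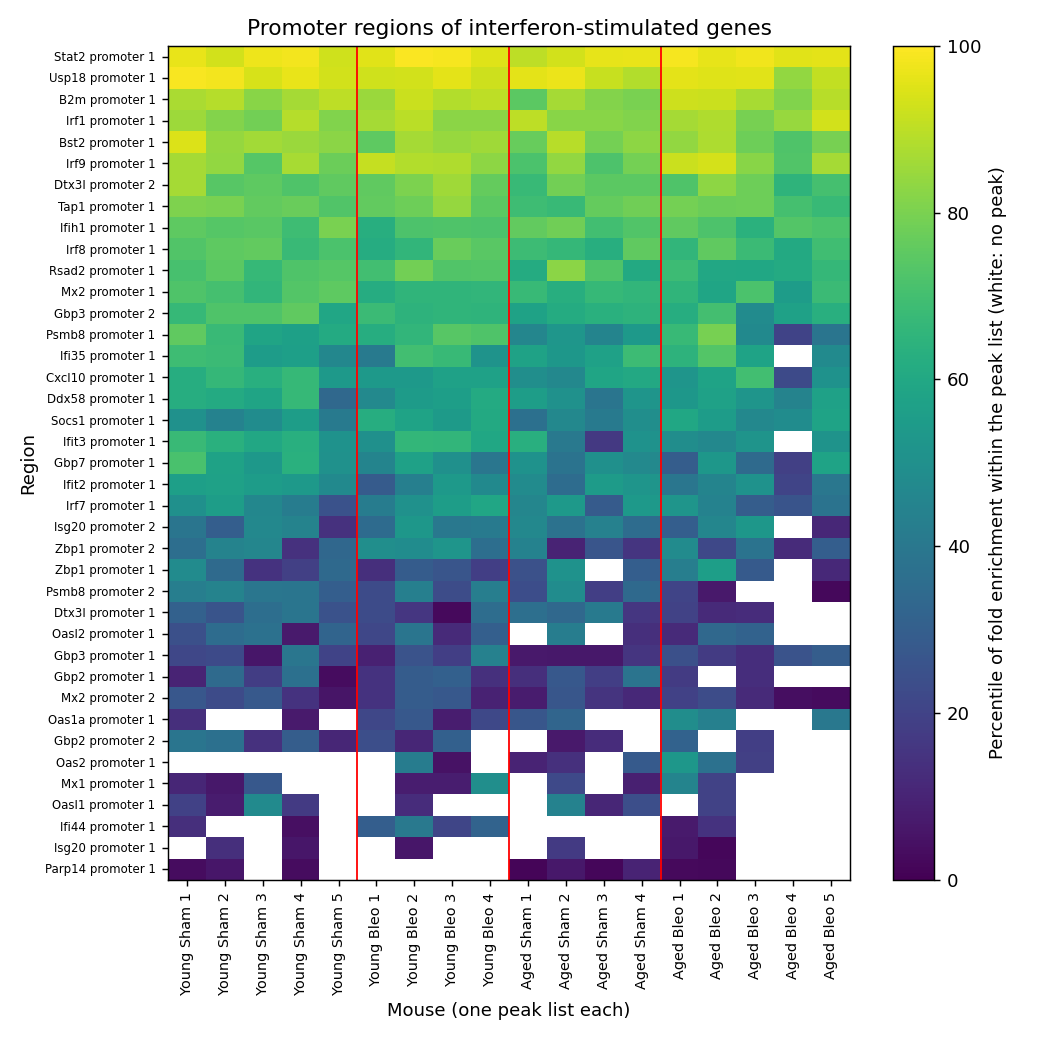
Percentile of fold enrichment within the peak list (colour) for 39 promoter regions (rows) in 18 mice (columns, groups divided by red lines). White marks no peak, and most white cells lie in the rows of weak promoters, with Stat2 at the top and Parp14 at the bottom.

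Among the sensors, Oas2, a synthetase that activates RNase L in response to double-stranded RNA, had no promoter peak in Young Sham mice and peaks in 2 of 4 Young Bleo, 3 of 4 Aged Sham and 3 of 5 Aged Bleo mice. Where called, its fold enrichment was 8.01 and 4.48 in Young Bleo mice, 5.44, 5.55 and 6.55 in Aged Sham mice and 9.60, 7.95 and 6.11 in Aged Bleo mice. An intronic Oas2 region 16236 bp from the TSS was called in 3 Young Bleo mice, 1 Aged Bleo mouse and no sham mouse. All 5 Young Sham mice were in lane 8, where the Young Bleo mouse also lacked both peaks.

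The chemokine promoter was open in every mouse. The Cxcl10 promoter had fold enrichments of 12.3, 12.8, 11.6, 12.5 and 10.5 in Young Sham mice and from 9.90 to 10.9 in Young Bleo mice. They ranged from 9.66 to 12 in Aged Sham mice and were 9.36, 11.8, 14.2, 6.32 and 9.65 in Aged Bleo mice, so the groups overlapped. These values are not scaled between libraries. Within the lists the mean percentile was 62.6 in Young Sham, 55.5 in Young Bleo, 53.8 in Aged Sham and 50.7 in Aged Bleo mice. Single mice of the groups overlapped on that scale too. The Cxcl10 distal region was called in all 9 young mice, in 3 of 4 Aged Sham mice and in 2 of 5 Aged Bleo mice. Ifit1 had no promoter region of its own, because the region over its TSS, called in 17 mice, was nearest to Ifit1bl2. The shared promoter of Psmb9 and Tap1 was called in 18 mice and counted for Tap1, a peptide transporter.

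The number of member regions called was lower on average in aged mice, as was that of all regions, and the groups overlapped. Young Sham mice had 83.2 ± 5.89 member regions (SD, n = 5), Young Bleo mice 80.0 ± 4.69 (n = 4), Aged Sham mice 70.2 ± 8.42 (n = 4) and Aged Bleo mice 70.4 ± 16.0 (n = 5). Promoter regions ranged from 32 to 37 in Young Sham and from 23 to 38 in Aged Bleo mice, and distal regions from 42 to 53 and from 22 to 47. Of all consensus regions, Young Sham lists held 71.9% and Aged Sham lists 59.2%, and of member regions 82.4% and 69.5%. With the strongest 21050 peaks of every list, the number of the smallest, member regions called ranged from 49 to 52 in Young Sham, 48 to 52 in Young Bleo, 47 to 55 in Aged Sham and 44 to 54 in Aged Bleo mice. In sorted cells measured in bulk, fewer open cells and weaker opening in every cell cannot be told apart.

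**Figure D3:**
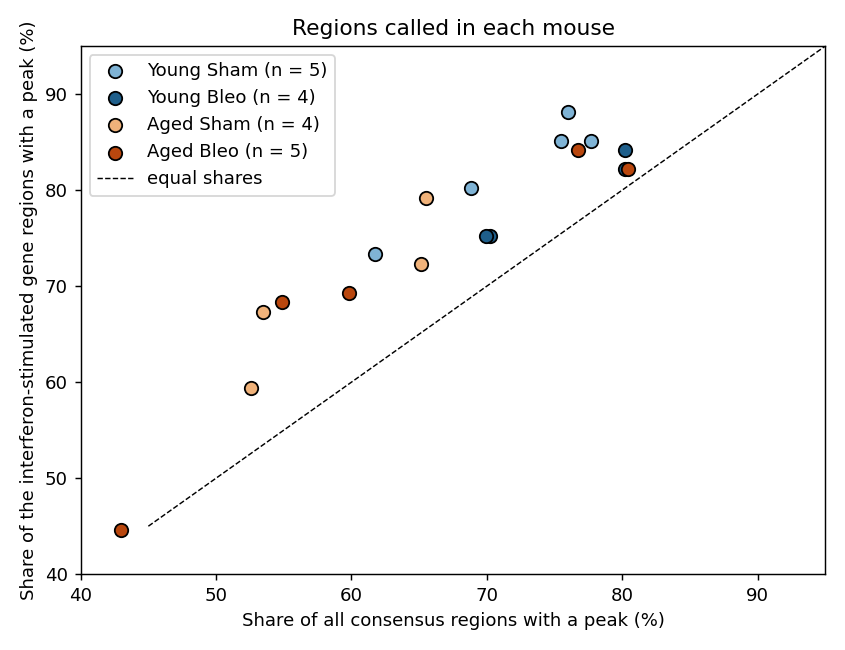
Share of member regions with a peak (vertical, in percent) against the share of all consensus regions with a peak (horizontal, in percent) in each mouse, coloured by group. The dashed line marks equal shares, and the lowest point is Aged Bleo 4, with 44.6% of member and 43.0% of all regions.

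For presence, the number of mice with a peak was compared between groups by Fisher's exact test (two-sided), with p of at most 0.05 as a call. No region passed Benjamini-Hochberg adjustment over the 47338 regions in any of the 6 comparisons, the smallest adjusted p being 0.162. The calls below are therefore descriptions of named regions, to be read against the share called among all regions.

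In Aged Sham against Young Sham, 1 member region was called in more mice, against 0.264% of all regions, and 6 in fewer, against 4.90%. The Oas2 promoter was the former. Called in 1 of 4 Aged Sham and 5 of 5 Young Sham mice were Gbp5 distal 2, Gbp5 distal 4 and Gbp3 distal 1, near genes for guanylate-binding proteins, GTPases that attack intracellular pathogens, and Parp14 distal 2 and Ifit1 distal 2, near genes of antiviral effectors. Socs1 distal 5, near an inhibitor of JAK kinases, was called in 0 of 4 and 4 of 5. Each had p = 0.0476 by the exact test. With lists of equal size no member was called, against 2.92% of all regions, and without any 1 mouse 0 to 2 were, against 1.15% to 2.15%. With peaks of a fold enrichment of at least 5, Gbp5 distal 4 turned to 25 percentage points more in Aged Sham mice, with equal list sizes Ifit1 distal 2 turned to 5.00 points more, and with lane as a term the Oas2 promoter turned to -7.64 percentile points. Gbp5 distal 2 had fold enrichments of 7.07, 10.5, 5.76, 11.4 and 9.73 in Young Sham mice and 13.9 in the single Aged Sham mouse with a peak.

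In Young Bleo against Young Sham, 2 member regions were called in more mice, against 3.98%, and 3 in fewer, against 1.96%. Without any 1 mouse 1 to 3 members were called, against 1.69% to 3.08% of all regions. Oas2 distal 1 and Irf8 distal 1 were called in 3 of 4 Young Bleo and 0 of 5 Young Sham mice. The Young Bleo mice with these peaks were in lane 7, while Young Bleo 4, without them, was in lane 8 with all Young Sham mice. Gbp3 distal 1 was called in 0 of 4 and 5 of 5, the complete separation that gives the smallest p of this design, 0.00794 by the exact test, with an adjusted p of 0.535. Gbp3 distal 1 lay in an untranslated part of a Gbp7 exon, 13016 bp upstream of the Gbp3 TSS. Parp14 distal 2 and Irf8 distal 8 were called in 1 of 4 and 5 of 5, the latter 93552 bp from the Irf8 TSS. Over the mice with a peak, mean percentiles were 31.3 for Gbp3 distal 1, 21.2 for Oas2 distal 1 and 20.8 for Parp14 distal 2. They were 11.4 for Irf8 distal 1 and 2.81 for Irf8 distal 8, near the floor of the lists.

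In Aged Bleo against Young Sham, no member region was called in more mice, against 0.201%, and 3 were called in fewer, against 3.01%. These were Socs1 distal 4 and Parp14 distal 2, each in 1 of 5 and 5 of 5, and Irf1 distal 1, in 0 of 5 and 4 of 5. Socs1 distal 4 lay in an intron of Clec16a, 44221 bp from the Socs1 TSS. Over the mice with a peak, their mean percentiles were 21.9, 20.8 and 4.18 in the order named, the last near the floor of the lists. Without any 1 mouse 3 to 8 members were called, against 3.73% to 5.86% of all regions, with 8 without Aged Bleo 3 or Aged Bleo 5, against 4.28% or 4.15%. In Aged Bleo against Aged Sham, Gbp5 distal 2 was called in 5 of 5 against 1 of 4 mice, against 0.475% of all regions in that direction, and no member was called in fewer, against 0.410%. Without any 1 mouse 0 to 1 members were called there, against 0.104% to 0.270% of all regions, with 1 only without Aged Sham 2 (0.148%).

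Over both treatments, 1 member region was called in more aged than young mice, against 0.127%, and 3 in fewer, against 4.87%. Psmb8 distal 1 lay in an intron of Tap1, 3196 bp upstream of the TSS of Psmb8, an immunoproteasome subunit gene. It was called in 5 of 9 aged and 0 of 9 young mice (p = 0.0294, exact test). Usp18 distal 1 was called in 0 of 9 and 6 of 9, Gbp5 distal 4 in 3 of 9 and 9 of 9 and Ifit1 distal 2 in 4 of 9 and 9 of 9. With peaks of a fold enrichment of at least 5 only, Gbp5 distal 4 was called more often in aged mice, by 11.1 percentage points, and with equal list sizes the shares of Ifit1 distal 2 differed by 0 points. Over both ages, Irf8 distal 1 was called in 6 of 9 Bleo and 1 of 9 sham mice, against 2.17% of all regions, and Socs1 distal 4 in 3 of 9 and 8 of 9, against 1.23%. Irf8, a factor of the interferon regulatory family, had 11 distal regions, Irf1 and Socs1 had 6 each, and no other member had more.

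**Figure D4:**
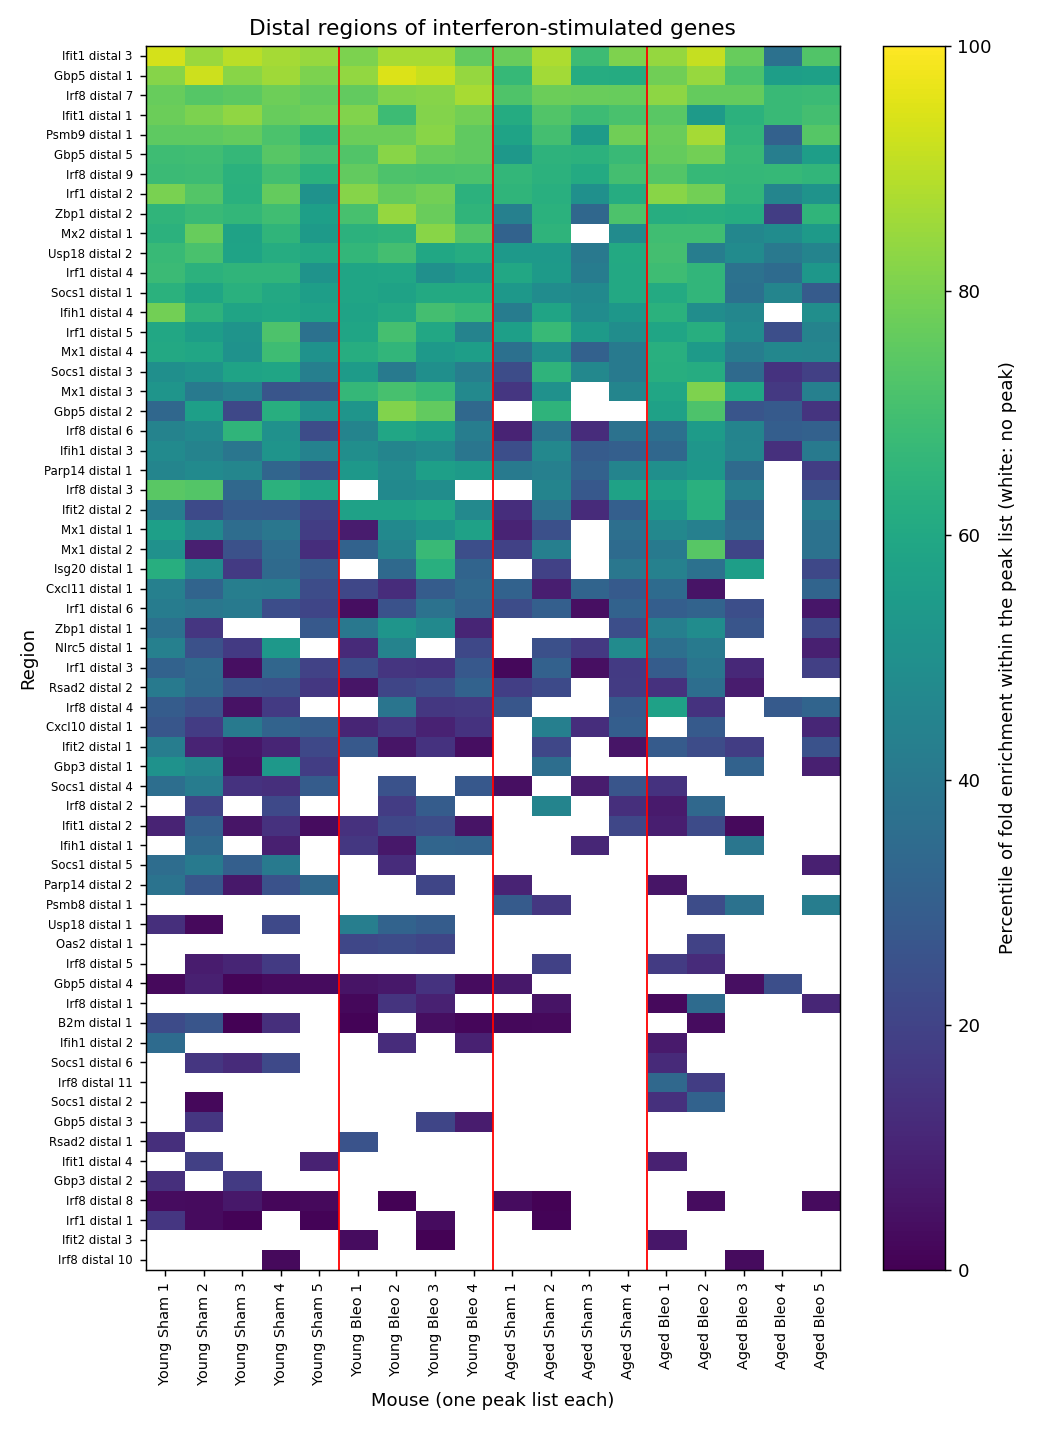
Percentile of fold enrichment within the peak list (colour) for 62 distal regions (rows) in 18 mice (columns, groups divided by red lines). White marks no peak, and 17 regions have a peak in every mouse.

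Strength was compared in the 17432 regions called in all 18 mice, of which 40 were members, 23 at promoters and 17 distal. The log2 fold enrichment was centred on the median of these regions in each mouse and fitted with limma over the 4 groups, with adjusted p under 0.05 as threshold. In Aged Bleo against Young Sham, 1 member rose, against 7.73% of all regions, and none fell, against 4.76%. Without any 1 mouse 0 to 6 members passed, against 6.07% to 18.3% of all regions, with 0 without Young Sham 3 and 6 without Aged Bleo 2, where 18.3% of all regions passed. Over both treatments, 1 member was lower and none higher in aged mice, against 2.56% and 2.78% of all regions. Over both ages, 1 member was higher and none lower after bleomycin, against 2.56% and 2.91%.

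Irf9 encodes the DNA-binding subunit of the interferon-activated complex, and its promoter region covers the TSS and a coding exon at chr14:55603832-55604563. Its relative log2 fold enrichment was 0.31, 0.22, -0.00109, 0.33 and 0.20 in Young Sham mice and 0.52, 0.35, 0.34 and 0.27 in Young Bleo mice. It was 0.14, 0.32, 0.17 and 0.20 in Aged Sham mice and 0.53, 0.56, 0.37, 0.41 and 0.61 in Aged Bleo mice. All Aged Bleo values exceeded all sham values, while Young Bleo values overlapped those of Young Sham. The difference was 0.28 ± 0.078 (SE) in Aged Bleo against Young Sham (limma adjusted p = 0.0190) and 0.22 ± 0.058 over both ages (adjusted p = 0.0215). It was 0.29 ± 0.082 in Aged Bleo against Aged Sham (adjusted p = 0.0769) and 0.16 ± 0.082 in Young Bleo against Young Sham (adjusted p = 0.394). Within lane 6 the Aged Bleo mean was 0.495 and the single Aged Sham mouse stood at 0.196, and within lane 8 the single Young Bleo mouse stood at 0.272 against a Young Sham mean of 0.211. With lane as a term the differences were 0.17 (adjusted p = 0.792) and 0.18 (adjusted p = 0.773), and no region of the series passed. The call in Aged Bleo against Young Sham was also lost with quantile normalization, at 0.22 (limma adjusted p = 0.0642). It was lost with a percentile scale too (limma adjusted p = 0.0724). Ranked within whole lists, the Irf9 promoter had a mean percentile of 81.7 in Young Sham and 85.5 in Aged Bleo mice. The mean was 76.6 in Aged Sham and 87.7 in Young Bleo mice, the highest group on that scale. Without Young Sham 3 or Aged Bleo 5 the adjusted p in Aged Bleo against Young Sham was 0.0635 or 0.0536, and without Young Bleo 1 that over both ages was 0.0669.

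Gbp5 distal 1 is an intergenic region at chr3:142454133-142454703, 42516 bp upstream of the Gbp5 TSS, and 1 tandem GAAA match lies in its window printed above. Its relative log2 fold enrichment was 0.16, 0.49, 0.26, 0.30 and 0.27 in Young Sham mice and 0.30, 0.56, 0.45 and 0.30 in Young Bleo mice. It was 0.013, 0.39, -0.11 and -0.30 in Aged Sham mice and 0.071, 0.22, 0.051, -0.074 and -0.32 in Aged Bleo mice. Aged Sham 2 and Aged Bleo 2 lay within the range of the young mice, and the other 7 aged mice lay below it. Over both treatments it fell by 0.36 ± 0.082 on the log2 scale in aged mice (SE, limma adjusted p = 0.0171). Within lane 7 the Aged Sham mean was 0.0960 and the Young Bleo mean 0.437, in groups that also differ in treatment. With lane as a term the difference over both treatments was -0.19 (adjusted p = 0.618), in a fit where no region of the series passed.

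**Figure D5:**
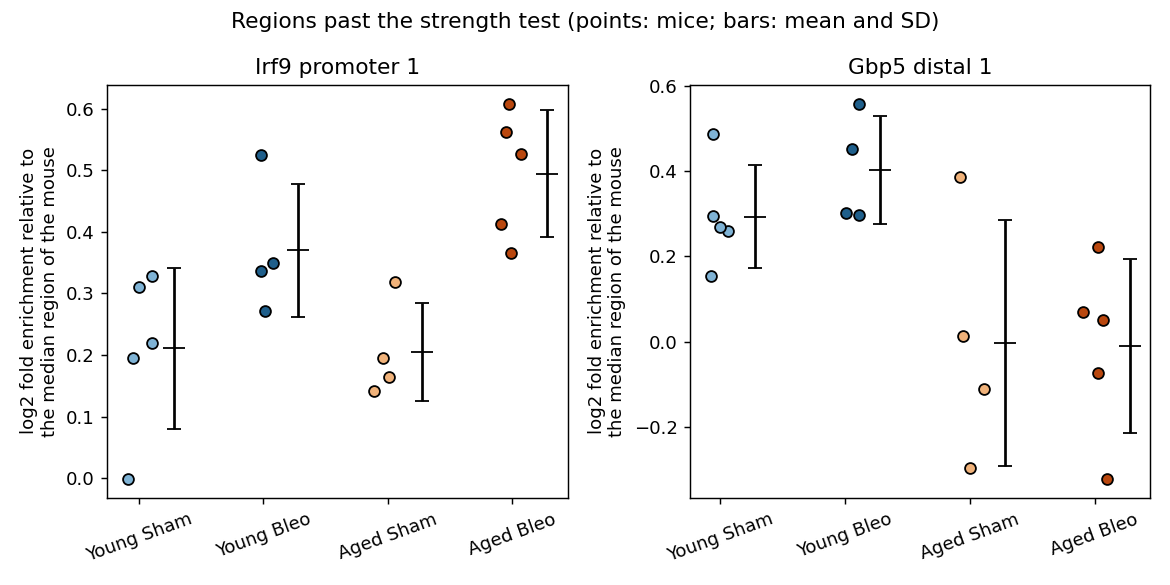
Relative log2 fold enrichment (vertical) of Irf9 promoter 1 and Gbp5 distal 1 in each mouse (points) by group, with the mean and SD as bars. For Irf9 the Aged Bleo mean is highest, with Young Bleo 1 among the Aged Bleo values, and for Gbp5 distal 1 the means of the aged groups are lowest.

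No member passed in the remaining contrasts. Among all regions, 0.430% were higher and 0.717% lower in Aged Sham against Young Sham, 0.912% and 1.31% in Young Bleo against Young Sham, and 0.476% and 0.447% in Aged Bleo against Aged Sham. For the bleomycin response in young minus that in aged mice the shares were 0% and 0%, and 1 of 40 members (2.50%) had an unadjusted p under 0.05 in limma, against 8.25% of all regions. In each of the other 3 contrasts 3 of 40 members (7.50%) had one, against 14.5%, 13.9% and 16.1% of all regions in the order just given. The members with the smallest p in each direction are given as log2 differences that did not pass. In Aged Sham against Young Sham, the difference was 0.15 for Irf8 distal 7, 0.22 for the promoter of Irf7, which amplifies type I interferon production, -0.30 for Gbp5 distal 1 and -0.32 for Mx1 distal 4, with limma adjusted p from 0.220 to 0.492. In Young Bleo against Young Sham, it was 0.28 for the Socs1 promoter, -0.16 for that of Usp18 and -0.33 for that of Gbp7, with limma adjusted p from 0.306 to 0.357. In Aged Bleo against Aged Sham, it was 0.26 for the B2m promoter (adjusted p = 0.0914), -0.28 for Irf1 distal 5 (adjusted p = 0.355) and -0.21 for the promoter of Rsad2, an antiviral enzyme (adjusted p = 0.412), and the sign of the last pair turned with lane as a term. Single mice moved 2 of these differences by over 1.5 times. That of Irf7 was 0.14 without Young Sham 5 and 0.33 without Aged Sham 3, and that of Rsad2 was -0.12 without Aged Sham 2, -0.13 without Aged Bleo 2 and -0.32 without Aged Sham 4. The median log2 difference is given for promoter and distal regions apart. In Aged Sham against Young Sham it was 0.0012 for the 23 member promoters, against 0.056 for all promoters tested. It was -0.089 for the 17 member distal regions, against -0.039 for all distal regions tested. Of the 17, 14 were negative, and of the 7364 distal regions tested, 4213 were. In Young Bleo against Young Sham the medians were 0.0225 against -0.014 for promoters and 0.060 against -0.0011 for distal regions. They were 0.0026 against 0.086 and -0.0745 against -0.020 in Aged Bleo against Young Sham, and in Aged Bleo against Aged Sham -0.015 against 0.032 and -0.0082 against 0.026. Over both treatments, aged against young, they were 0.034 against 0.081 and -0.11 against -0.028, the distal members including Gbp5 distal 1. Over both ages, bleomycin against sham, they were -0.0248 against 0.00896 and 0.0486 against 0.0166, the promoters including that of Irf9. These medians are descriptions and were not tested.

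Of 40 other genes of the pathway, 39 had 119 regions, 46 of them called in all mice. In Aged Bleo against Young Sham, 5 of these 46 rose in strength and none fell, where 7.73% of all regions rose and 4.76% fell. Among the 5 were the promoters of Samhd1, a restriction factor that depletes nucleotides (0.34 ± 0.070, SE, limma adjusted p = 0.00392), Ifnar1, a chain of the type I interferon receptor (0.23 ± 0.072, adjusted p = 0.0329), and Mavs, the adaptor of RNA sensors (0.20 ± 0.061, adjusted p = 0.0347). Irf2 had a distal region 38517 bp from its TSS that fell by 0.57 ± 0.14 in Young Bleo against Young Sham (adjusted p = 0.0271). Of the 119, 1 was called in more (0.840%, against 0.264% of all regions) and 1 in fewer (0.840%, against 4.90%) Aged Sham than Young Sham mice. In Young Bleo against Young Sham, 6 were called in more (5.04%, against 3.98%) and 4 in fewer (3.36%, against 1.96%). Ifnar2 had a distal region called in 4 of 4 Young Bleo and 0 of 5 Young Sham mice (p = 0.00794, exact test). Called in fewer were the promoters of Ifi47, in 1 of 4 and 5 of 5, and Adar, in 0 of 4 and 4 of 5 (each p = 0.0476, exact test). Over both ages, the Ifi47 promoter was called in 3 of 9 Bleo and 9 of 9 sham mice (p = 0.00905, exact test). There 2 of the 119 were called in more (1.68%, against 2.17%) and 1 in fewer (0.840%, against 1.23%). None of these calls passed adjustment.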

How the data were processed

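ATAC-seq peak lists of sorted lung ECs from 18 mice were used. Per the labels and the paper's methods, the authors mapped reads to mm10 with BWA, removed duplicates and called peaks with MACS2 in each sample, without pooling. The deposited fold enrichment is a ratio to the local background of the library, and -log10 values of p and q were deposited from MACS2's Poisson test. The deposited score was not used. None is scaled between libraries. Reads were not counted over regions here, so the authors' DiffBind comparison was not repeated. Fragments at the summit, recovered from the lists, served as an alternative for strength.

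Nuclear peaks sharing at least 1 bp were joined into regions, and 19 mitochondrial peaks were left out. Fragments at the summit were recovered from fold enrichment and -log10 p, and at least 99.985% of peaks in each list gave a whole number within 0.05. Presence was tested with Fisher's exact test and strength with limma 3.58.1 in R 4.3.3, with Benjamini-Hochberg adjustment. Python 3.11.15 and scipy 1.17.1 were used, and both tests were tested on simulated data. Groups came from the labels, and the lane from a number in the names of the lists, whose meaning the labels do not state, so every value with lane as a term rests on that reading.

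The members and lists were chosen with earlier results of these data known. Named were Oas2, Ifit1 and Cxcl10, member regions called in each presence comparison, members past the strength threshold or, with none, the 2 with the smallest p in each direction, the 5 promoters with the highest and the 5 with the lowest percentile, and the members with no promoter region or the most distal regions. Genes without a promoter region were Oas3, Ifit1, Isg15, Cxcl9, Cxcl11, Gbp5, Psmb9 and Nlrc5. The alternatives were other peak thresholds, equal list sizes, other scales, lane as a term, the replicate block and leaving out each mouse. The limma p-values rest on the spread between mice of this series, and those of the exact test on the number of mice with a peak.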

Additional observations from a re-analysis of the deposited data

Results flagged for a closer look

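Of 56 checks for a mouse far from the others of its group, 2 found one, and chance alone gives about 1 in 20. Both concern Aged Sham 3. The Irf7 promoter had a relative log2 fold enrichment of -0.981 in that mouse, while the next mouse of the group stood at -0.572. Irf8 distal 7 stood at 0.311 in the same mouse, against 0.156 for the next. Aged Sham 3 had 25793 peaks and 60 member regions called, the lowest of its group in both.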

How the results depend on the processing

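Counts below are member regions past each test's threshold. Against 7, 5, 3, 1, 4 and 2 regions by Fisher's exact test (Aged Sham, Young Bleo and Aged Bleo against Young Sham, Aged Bleo against Aged Sham, aged against young, bleomycin against sham), a fold enrichment of at least 5 gave 3, 3, 2 and 0 in the first, the second, the fourth and the last (4.58%, 6.12%, 0.999% and 3.53% of all regions called). Equal list sizes left 27849 regions, 68 of them members, and gave 0, 3, 2, 1 and 4 in all but the third (2.92%, 6.84%, 1.48%, 1.86% and 4.45%). Peaks covering at least 50% of the region gave 11, 2, 14 and 4 in the last 4 (5.94%, 1.17%, 8.41% and 3.84%), and a -log10 q of at least 5 gave 7 in aged against young (5.43%). Without these changes 5.17%, 5.94%, 3.21%, 0.885%, 4.99% and 3.40% of all regions were called. The presence comparisons call a region at an unadjusted p of at most 0.05, so the shares called are not false discovery rates. As an alternative for these comparisons, limma on within-list percentile gave 13, 14, 27, 8, 25 and 19, where 19.1%, 17.5%, 22.9%, 8.41%, 27.1% and 18.9% of all regions passed. With the replicate block it gave 16, 13, 29, 11, 27 and 22 (21.9%, 17.3%, 23.5%, 9.62%, 27.4% and 19.4%), and with lane as a term 3, 8 and 4 in the last 3 (4.05%, 13.4% and 6.20%). Leaving out 1 mouse gave 0 to 2, 1 to 3, 3 to 8, 0 to 1, 4 to 8 and 2 to 5, where 1.15% to 2.15%, 1.69% to 3.08%, 3.73% to 5.86%, 0.104% to 0.270%, 5.29% to 8.21% and 3.91% to 6.09% of all regions were called. Calls between groups of 4 and 5 mice at the p of 0.0476 (exact test) were lost without 8 of the 9 mice. That loss follows from the exact test at these group sizes, so it does not measure how stable the calls were.

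For strength, log2 fragments at the summit gave 1, 3, 12, 2, 4 and 9 members in the same order, where 7.35% to 31.6% of all regions passed. In Aged Bleo against Young Sham, quantile normalization and lane as a term gave 0 (11% and 0% of all regions), uncalled regions set to the lowest fold enrichment 3 of 101 (4.22%), and the replicate block 2 (13.7%), with Gbp5 distal 1 added. That setting of uncalled regions gave 2 in Young Bleo against Young Sham (4.40%) and 2 in aged against young (1.81%), and lane as a term gave 0 in aged against young and 0 in bleomycin against sham. Leaving out 1 mouse gave 0 to 6 in Aged Bleo against Young Sham (6.07% to 18.3% of all regions), the 6 without Aged Bleo 2 (18.3%). It gave 1 to 2 in aged against young (1.86% to 14.9%), 0 to 2 in bleomycin against sham (3.10% to 8.23%), and 0 in the other contrasts (at most 3.24%).

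Directions turned in 6 cases. With lane as a term, Oas2 promoter 1 in Aged Sham against Young Sham went from 75.0 percentage points to -7.64 percentile points, and in Aged Bleo against Aged Sham Irf1 distal 5 to 0.00549 and Rsad2 promoter 1 to 0.11 on the log2 scale. With a fold enrichment of at least 5, Gbp5 distal 4 went to 25 and 11.1 percentage points in the 2 age comparisons. With equal list sizes, Ifit1 distal 2 went to 5.00 points in Aged Sham against Young Sham. Same-numbered mice of different groups correlated at a median r of 0.018 (25 pairs, 6 over 0.1), so the numbers did not pair the mice. A median summit held 26 to 35 fragments, and the effect of depth on weak regions was not tested.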
